A study of Mus musculus with 23 samples.

Results

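Lhx2, Emx2, Nr2f1, Otx2, Tcf7l2 and Zic1 are 6 transcription factor genes with regional expression in the developing and adult brain. They were taken by symbol from the 32285 genes of the deposited matrix, each matched 1 gene, and they were read out by cell class, treatment and fluorescence bin, to ask from which regions the antibody-labelled cells come. Mice received 45 mg/kg of an Alexa647-coupled antibody by tail vein, were perfused 24 hours later, and their brains were dissociated in the presence of Actinomycin D and Anisomycin. ATV-TfR (labelled DNP02_hIgG1_LALAPG_ATV35.23.2 - Alexa647) is an antibody transport vehicle that binds the transferrin receptor and was given to TfR mu/hu KI mice. ATV-CD98hc (DNP02 LALAPG LLB2-10-8 monovalent - Alexa647) binds CD98hc and was given to CD98hc mu/hu KI mice. The control IgG (DNP02_hIgG1_LALAPG_Alexa647) was given to C57BL/6J mice. All mice were 12 weeks old (3.3 months in the sample labels). Antibody and genotype cannot be told apart in this design, and the tissue held no olfactory bulb, cerebellum, pons or medulla. Live cells were sorted into negative, low, medium and high bins of fluorescence. The 3 positive gates were tertiles of the ATV-TfR cells and were applied to every treatment, of whose cells about 30% (ATV-TfR), 20% (ATV-CD98hc) and 1% (control IgG) were positive. Each library held 1 bin of 1 pool of 1 male and 1 female mouse, with 2 pools per treatment, and the control IgG negative bin had 1 library, so 23 libraries fell into 12 groups.

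During development the neural tube is divided along its length by transcription factors, and astrocytes of the adult brain keep part of that pattern, so that an astrocyte's factors reflect the region where it was born. Lhx2, a LIM-homeodomain factor that specifies cortical identity, and Emx2, a homeodomain factor of the cortical and hippocampal primordium, are known as telencephalic genes. Nr2f1 (COUP-TFI) is an orphan nuclear receptor expressed in gradients across the cortex and in other regions. Otx2 is a homeodomain factor of the forebrain and midbrain that is kept on in the choroid plexus. Tcf7l2 is an HMG-box effector of Wnt signalling that is strong in thalamus and midbrain. Zic1 is a zinc finger factor of the dorsal midline and of the meninges.

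The matrix held 1129743851 unique molecular identifiers (UMIs) in 265025 barcodes, of which 234022 cells were kept, 519 to 19339 per library with median depths of 2178 to 4873 UMIs. Of the kept cells, 5.75% carried a barcode sequence also seen in another library. Levels are given as CPM, the UMIs of a gene as a part of all UMIs in the cells of a class in a library, scaled as is usual for this unit, and a class ending in -like was named from marker genes of its clusters. The largest classes were endothelial-like (95654 cells) and astrocyte-like (90910 cells). Clustering used none of the 6 genes, but not all genes that overlap them were barred from it. Astrocyte-like cells had all 8 astrocyte markers in each library used, and 17 libraries had at least 20 of them (176 to 14832 cells): every ATV library and the control IgG negative library. The control IgG low, medium and high bins had too few, so no comparison between bins was possible there.

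The 6 genes lie on 5 chromosomes of the mouse GRCm38 build: Lhx2 on chr2:38339281-38369733 (plus strand), Zic1 on chr9:91358058-91365810 (minus), Nr2f1 on chr13:78188973-78199757 (minus), Otx2 on chr14:48657677-48673819 (minus), and Tcf7l2 and Emx2 both on the plus strand of chromosome 19, at chr19:55741820-55933654 and chr19:59458372-59465357. Annotated genes on the opposite strand overlap Lhx2, Zic1, Nr2f1, Otx2 and Emx2, among them A830082K12Rik (32339 UMIs in astrocyte-like cells) with Nr2f1 and Emx2os (25290 UMIs) with Emx2. Whether counting used the strand is not given in the sources used here, so reads of the overlapping pairs may not be separated. The 250 bases upstream of the RefSeq start (GRCm38.p6) are shown for Lhx2, which had the largest difference between the ATVs, and for Tcf7l2, for which no comparison in astrocyte-like cells was called. Capitals mark the GC box CCGCCC on either strand.
Lhx2, chr2:38339031-38339280, plus strand: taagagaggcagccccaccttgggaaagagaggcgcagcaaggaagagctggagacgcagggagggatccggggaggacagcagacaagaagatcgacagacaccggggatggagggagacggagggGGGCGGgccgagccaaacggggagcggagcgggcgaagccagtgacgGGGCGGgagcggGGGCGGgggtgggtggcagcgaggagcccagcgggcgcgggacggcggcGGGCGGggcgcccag
Tcf7l2, chr19:55741560-55741809, plus strand: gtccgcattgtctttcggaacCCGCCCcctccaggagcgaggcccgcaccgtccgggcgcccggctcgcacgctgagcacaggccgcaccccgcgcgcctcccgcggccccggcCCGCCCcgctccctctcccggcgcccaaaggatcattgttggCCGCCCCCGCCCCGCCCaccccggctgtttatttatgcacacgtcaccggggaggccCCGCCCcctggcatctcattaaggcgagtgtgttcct
Both windows were 72.8% G and C against a median of 52.4% over 32851 windows of the same length, with 25 CpG in Lhx2 and 30 in Tcf7l2 against a median of 6. The window of Lhx2 held 4 GC boxes and that of Tcf7l2 held 6, those of Emx2 and Zic1 held 2 each, that of Nr2f1 1 and that of Otx2 none. A GC box was in 32.7% of all windows. TAATTA, a core bound by many homeodomain proteins, was in the window of Otx2 alone of the 6 and in 4.84% of all windows. The Otx2 window (chr14:48667645-48667894, minus strand), the outermost of 4 listed for the gene, lies within the gene span given above. The windows of Emx2 and Nr2f1 also lie within their spans, and that of Zic1 does in part. These motifs were chosen after the windows had been seen, and the matches are a description of letters.

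Across cell classes each gene had its own distribution, given here with no test. Among the named classes Lhx2 and Emx2 were highest in astrocyte-like cells, with medians over 17 libraries of 107 CPM (19.7 to 174) and 45.6 CPM (7.21 to 54.7). The unnamed cluster 35, led by tanycyte genes, held 149 CPM of Lhx2 over all its cells. The next class for Lhx2 was neuron-like cells at 24.99 CPM (19.0 to 60.6, 7 libraries), whose range overlapped the lowest astrocyte-like libraries, and the next for Emx2 was ependymal-like cells at 20.2 CPM (10.8 to 26.6, 8 libraries). Tcf7l2 was also highest in astrocyte-like cells, at 334 CPM (268 to 406), above microglia-like (137 CPM, 16.6 to 182) and fibroblast-like cells (134 CPM, 94.2 to 191), which did not differ beyond their spread. Otx2 had its highest level in choroid plexus epithelial-like cells, at 287 CPM (206 to 358, 23 libraries), then ependymal-like cells at 67.2 CPM (37.7 to 129) and astrocyte-like cells at 19.5 CPM (8.50 to 23.1), with no overlap between these 3 classes. Zic1 was highest in classes of the vessel wall and meninges, with 416 CPM in fibroblast-like cells (309 to 588, 21 libraries). Pericyte-like cells held 323 CPM (140.5 to 556, 19 libraries) and smooth muscle-like cells 137 CPM (68.7 to 178, 10 libraries). Choroid plexus epithelial-like cells held 50.6 CPM (29.5 to 85.1, 23 libraries) and ependymal-like cells 44.4 CPM (32.3 to 180, 8 libraries). Astrocyte-like cells held 11.2 CPM of Zic1 (5.24 to 16.6). Nr2f1 was shared by fibroblast-like (288 CPM, 194 to 517), astrocyte-like (149 CPM, 111 to 195), ependymal-like (134 CPM, 52.8 to 181) and pericyte-like cells (118 CPM, 54.9 to 175), whose ranges overlapped in turn, fibroblast-like and astrocyte-like cells by 1 library each.

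**Figure D1:**
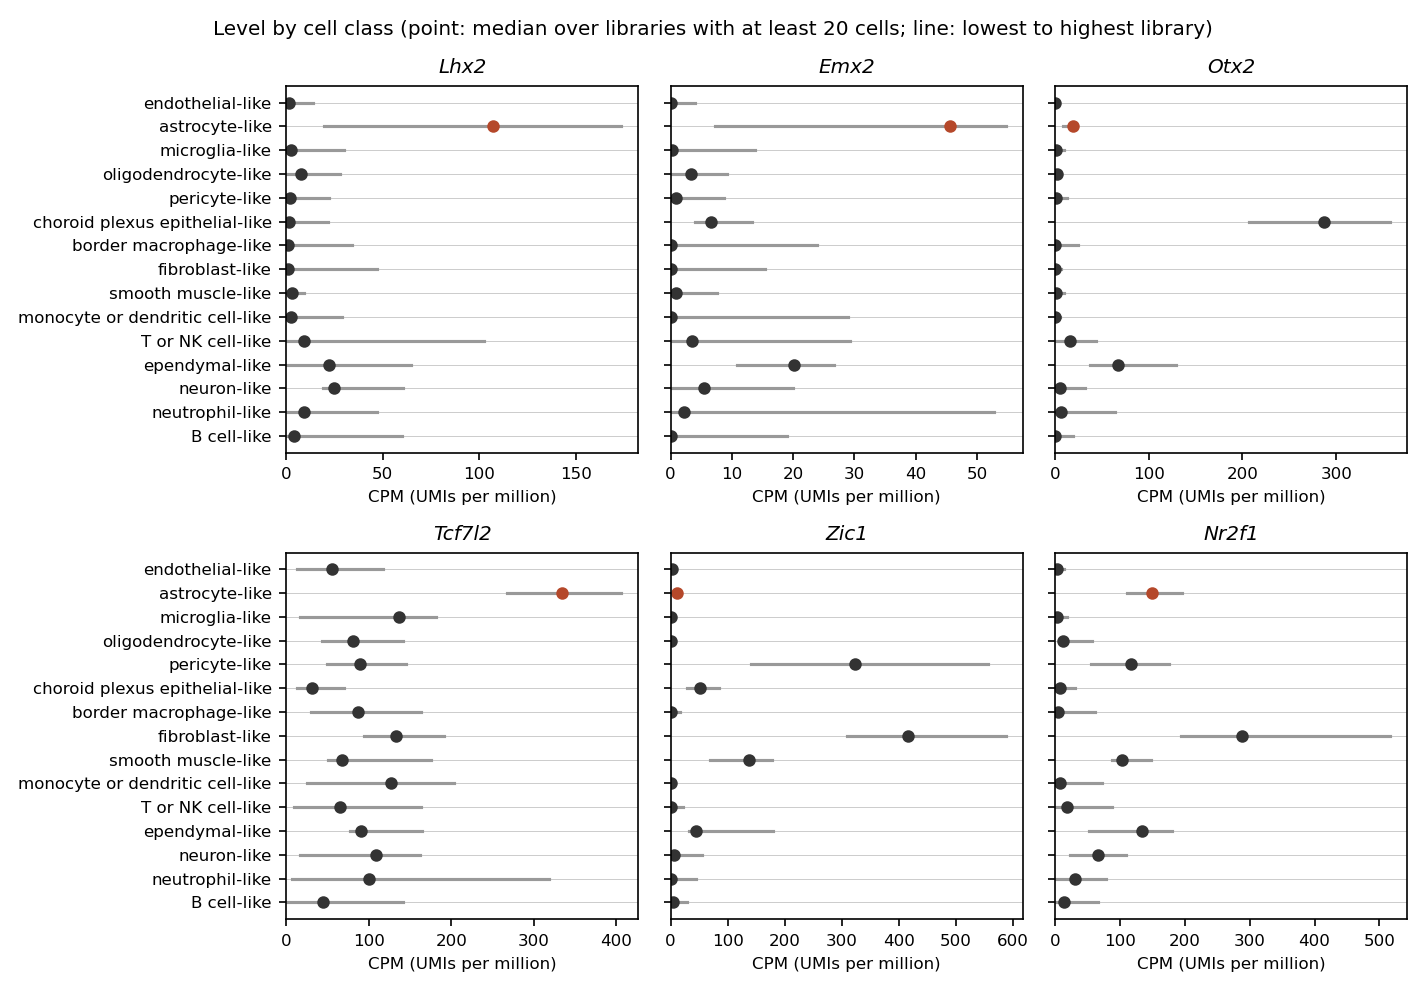
Level of the 6 genes (x axis, CPM on linear scales that differ between panels) in 15 cell classes (y axis). Points are medians over libraries with at least 20 cells of the class and lines run from the lowest to the highest library. The astrocyte-like class, in red, is highest for Lhx2, Emx2 and Tcf7l2, while Otx2 peaks in choroid plexus epithelial-like and Zic1 in fibroblast-like and pericyte-like cells.

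A UMI in a cell need not come from that cell, since free RNA enters droplets. Lhx2 had a UMI in 26.7% of astrocyte-like cells, in 1.24% of microglia-like cells and in 0.212% of endothelial-like cells, at median depths of 3948.5, 3521 and 3351 UMIs. For Emx2 the shares were 13.8%, 0.441% and 0.0711%. Otx2 had a UMI in 6.90% of astrocyte-like cells against 0.325% of microglia-like and 79.8% of choroid plexus epithelial-like cells, and Zic1 in 3.85% of astrocyte-like against 0.325% of microglia-like cells. Small blood cell classes came closer. Otx2 had a UMI in 5.37% of 484 T or NK cell-like and 2.81% of 356 neutrophil-like cells. Over all libraries together these held 18.1 and 17.6 CPM of Otx2 (35 and 23 UMIs), against 18.8 CPM in astrocyte-like cells. Zic1 was 12.6 CPM in B cell-like, 9.18 CPM in neutrophil-like and 6.20 CPM in T or NK cell-like cells, against 11.2 CPM in astrocyte-like cells. The part of free RNA was not tested.

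The comparison of bins asked whether astrocyte-like cells with more antibody carry other regional factors than unlabelled ones. In ATV-CD98hc mice the 2 telencephalic factors Lhx2 and Emx2 fell as fluorescence rose, and no other gene of the 6 was called in that treatment. In ATV-TfR mice Lhx2 and Nr2f1 rose and Otx2 fell in the high bin. Differences below are log2 fold changes with their standard error (SE) from edgeR's quasi-likelihood test on UMIs summed per library (n = 2 libraries per group, 1 for control IgG negative), called at a Benjamini-Hochberg adjusted p below 0.05 over 16526 genes. Nothing in the labels gives more than 2 pools per treatment. The main fit had no term for the pool, so the bins of 1 pool of 2 mice counted as separate libraries in its estimate of the spread. Deviations of a pool correlated between bins by up to 0.69 in ATV-TfR and 0.61 in ATV-CD98hc, so these p-values do not rest on independent pools alone. A fit with the pool as a block was an alternative, but not for the direct comparison of the ATVs within a bin.

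Lhx2 in astrocyte-like cells of ATV-CD98hc mice stood at 110 and 148 CPM in the negative bin, 96.1 and 106 CPM in the low bin, 63.0 and 75.1 CPM in the medium bin and 19.7 and 27.4 CPM in the high bin (replicates 1 and 2). No bin overlapped another. The control IgG negative library, at 107 CPM, was below both negative libraries of ATV-CD98hc. Against the negative bin the difference was -0.30 (SE 0.15, adjusted p = 0.351 by edgeR) in the low bin, -0.86 (SE 0.16, adjusted p = 0.000687) in the medium bin and -2.51 (SE 0.30, adjusted p = 1.38e-05) in the high bin. The high bin rests on 15 and 19 UMIs of Lhx2 in 176 and 210 cells.

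Emx2 followed the same course, with 45.6 and 54.7 CPM in the negative, 35.6 and 39.6 CPM in the low, 23.3 and 24.5 CPM in the medium and 9.18 and 7.21 CPM in the high bin. Here too no bin overlapped another, and the control IgG negative library held 49.9 CPM. The edgeR differences from the negative bin were -0.36 (SE 0.10, adjusted p = 0.0639), -1.02 (SE 0.12, adjusted p = 7.67e-06) and -2.65 (SE 0.31, adjusted p = 1.10e-05). That last value rests on 7 and 5 UMIs. The clusters that made up the class differed between the 2 bins: of the negative libraries 30.2% and 26.1% were in cluster 3 and 11.9% and 27.5% in cluster 4, against 5.68% and 7.62%, and 3.98% and 5.24%, of the high libraries, where cluster 2 held 52.8% and 39.5% and cluster 7 held 25% and 33.8%. In ATV-TfR cluster 3 held 21.3% and 20.5% of the negative and 15.9% and 26.5% of the high libraries. Cluster 4 held 13.9% and 17.1% of the negative and 36.4% and 28.5% of the high libraries there. Cluster 2 went from 9.02% and 11.2% to 24.7% and 25.8%, and cluster 6 from 23.6% and 23.8% to 10.4% and 6.63%. In ATV-CD98hc cluster 6 held 17.2% and 11.7% of the negative and 7.39% and 6.19% of the high libraries.

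In the medium and high bins of ATV-CD98hc 2 of the 6 genes were thus called, both lower, where 16.5% and 8.45% of all genes tested were called in either direction. In its low bin 0 of 6 were called by edgeR and by DESeq2, against 3.46% of all genes, and 2 of 6 had an unadjusted p below 0.05. With the pool as a replicate block, which compares bins of the same 2 mice, Lhx2 (-0.30, adjusted p = 0.0285) and Emx2 (-0.37, adjusted p = 0.00683) were both called in the low bin. Emx2 was also called there without the control IgG library (-0.37, adjusted p = 0.048). The called differences of Lhx2 and Emx2 in the medium and high bins were called in each of the 15 alternatives run, over ranges of -1.14 to -0.74 and -3.01 to -2.04 for Lhx2 and of -1.23 to -0.93 and -3.17 to -2.25 for Emx2.

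In ATV-TfR mice Lhx2 ran the other way. It stood at 102 and 115 CPM in the negative, 102 and 122 CPM in the low, 110 and 137 CPM in the medium and 145 and 174 CPM in the high bin. Only the high libraries were above all others. The high bin differed from the negative by 0.65 (SE 0.16, adjusted p = 0.00786 by edgeR), and the low (0.07) and medium (0.24) differences were not called. Without replicate 1 of ATV-TfR the high difference was 0.67 (adjusted p = 0.0889). Without replicate 2 it was 0.65 (adjusted p = 0.0948). Emx2 stayed between 40.02 and 50.4 CPM in all 8 ATV-TfR libraries, and its differences of -0.09, -0.14 and 0.13 were not called.

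**Figure D2:**
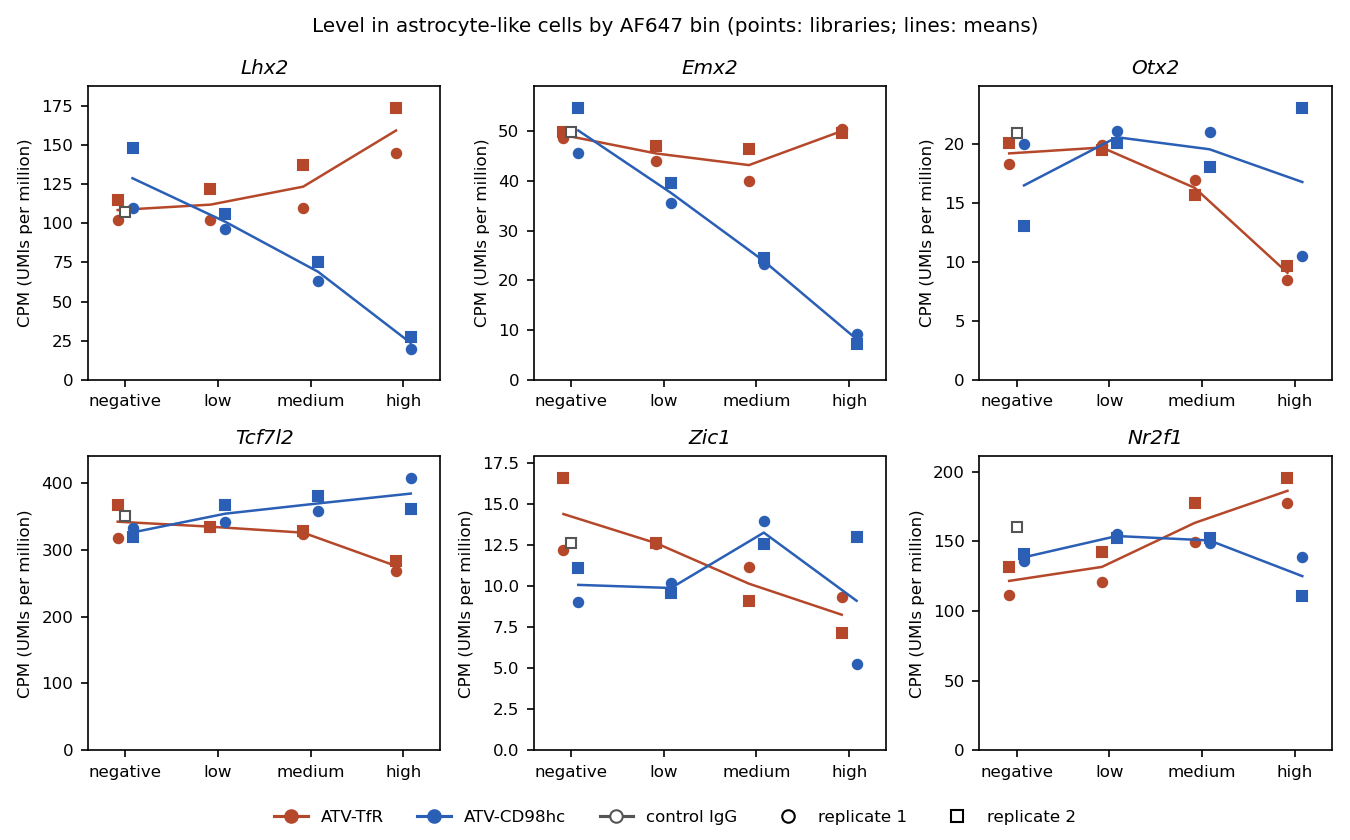
Level of each gene in astrocyte-like cells (y axis, CPM) by fluorescence bin (x axis). Points are libraries (circle replicate 1, square replicate 2), lines join group means, and the open square is the single control IgG negative library. Lhx2 and Emx2 fall to 27.4 and 9.18 CPM or less in the high bin of ATV-CD98hc, while Lhx2 and Nr2f1 rise and Otx2 falls in the high bin of ATV-TfR.

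Nr2f1 rose with fluorescence in ATV-TfR. It stood at 111 and 132 CPM in the negative, 121 and 142 CPM in the low, 149 and 177 CPM in the medium and 177 and 195 CPM in the high bin, so that medium and high lay above negative in both pools. The difference was 0.48 (SE 0.12, adjusted p = 0.0184 by edgeR) in the medium and 0.71 (SE 0.12, adjusted p = 0.000454) in the high bin. The medium call was lost without replicate 1 (0.49, adjusted p = 0.254) or without replicate 2 (0.49, adjusted p = 0.317), and the high call was kept in all 15 alternatives (0.54 to 0.91). The control IgG negative library held 160 CPM of Nr2f1, above both negative libraries of either ATV. In ATV-CD98hc Nr2f1 over the whole class lay between 136 and 155 CPM in the negative, low and medium bins. It was at 139 and 111 CPM in the high bin, with no call. Within clusters 3, 4 and 12, described below, the mean of Nr2f1 was higher in the medium than in the negative bin of both ATVs. In ATV-CD98hc it went from 142 to 189, from 166 to 246 and from 109 to 161 CPM. In ATV-TfR it went from 134 to 183, from 141 to 199 and from 117 to 154 CPM. In clusters 6 and 7 of ATV-CD98hc the mean was lower in the medium bin. These cluster means carry no test.

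Otx2, the forebrain and midbrain factor, was called only in the high bin of ATV-TfR, where it held 8.50 and 9.68 CPM (29 and 23 UMIs) against 18.3 and 20.1 CPM in the negative bin. The groups did not overlap, and the difference was -0.99 (SE 0.25, adjusted p = 0.00823 by edgeR). It was -0.98 (adjusted p = 0.199) without replicate 1 of ATV-TfR, -0.97 (adjusted p = 0.153) without replicate 2, -0.75 (adjusted p = 0.311) over cells with no UMI of capillary genes or Ttr, and -0.50 (adjusted p = 0.518) when astrocytes were gated on marker UMIs, which moves it by over 1.5 times. In the low and medium bins it stood at 20.0, 19.5, 16.9 and 15.6 CPM. Cluster 6, the astrocyte-like cluster with the most Otx2 (44.3 CPM), held 23.6% and 23.8% of the negative and 10.4% and 6.63% of the high libraries of ATV-TfR. The part of that shift in the fall of Otx2 was not tested. In ATV-CD98hc the high libraries disagreed, with 10.5 CPM (8 UMIs) in replicate 1 and 23.1 CPM (16 UMIs) in replicate 2, and no bin was called. Without replicate 1 of ATV-CD98hc Otx2 was called higher in the low bin (0.65, adjusted p = 0.0368).

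Tcf7l2, the Wnt effector, was the steadiest of the 6 in these cells. It ranged from 268 to 367 CPM over the 8 ATV-TfR libraries, lowest in the high bin (268 and 283 CPM), and from 319 to 406 CPM over those of ATV-CD98hc. No difference from the negative bin was called, the largest being -0.21 (SE 0.10, adjusted p = 0.146 by edgeR) in the high bin of ATV-TfR and 0.21 (SE 0.09, adjusted p = 0.144) in the medium bin of ATV-CD98hc. Zic1, rare in astrocyte-like cells, ranged from 5.24 to 16.6 CPM, with 4 and 9 UMIs in the high libraries of ATV-CD98hc, and none of its differences from the negative bin was called. Over cells with no UMI of capillary genes or Ttr its difference in the medium bin of ATV-TfR was called (-0.89, adjusted p = 0.00778, against -0.46 in all cells). Its edgeR differences in the high bin were -0.67 (SE 0.26, adjusted p = 0.0775) in ATV-TfR and -0.19 (SE 0.44, adjusted p = 0.867) in ATV-CD98hc. The latter turned to 1.63 (adjusted p = 0.0446) when astrocytes were gated on marker UMIs.

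In ATV-TfR this made 0 of 6 genes called in the low bin by edgeR, with 0 at an unadjusted p below 0.05 and 0 by DESeq2, against 1.45% of all genes tested. There were 1 of 6 in the medium bin, against 4.66%, and 3 of 6 in the high bin, against 19.8%. RNA of capillary cells also differed between bins, and was above the negative bin in the medium and high bins of both ATVs. It did not rise at each step: in ATV-CD98hc it was higher in the medium than in the high bin. In ATV-TfR the low and negative bins overlapped. The summed level of 8 endothelial markers in astrocyte-like cells was 4.46 to 10.4 CPM in the negative, 37.7 to 78.1 CPM in the low, 1051 to 1247 CPM in the medium and 597 to 890 CPM in the high libraries of ATV-CD98hc. In ATV-TfR it was 7.31 to 9.31, 5.86 to 13.2, 34.0 to 37.4 and 802 to 1145 CPM, and all 8 markers had UMIs in every high library. Over cells with no UMI of 4 capillary genes (Cldn5, Flt1, Pecam1, Ptprb) or of Ttr, Lhx2 differed from the negative bin by -0.96 (adjusted p = 0.00496 by edgeR) in the medium and by -2.86 (adjusted p = 0.000126) in the high bin of ATV-CD98hc, and by 0.58 (adjusted p = 0.0884) in the high bin of ATV-TfR. The summed choroid plexus markers were 221 to 225 CPM in the negative and 157 to 232 CPM in the high libraries of ATV-TfR. The summed astrocyte markers were 16199 to 16604 CPM and 24404 to 24861 CPM in the same libraries, and 17188 to 17269 CPM and 15521 to 17186 CPM in those of ATV-CD98hc. Over the cells with no UMI of capillary genes or Ttr, Emx2 differed by -0.93 (adjusted p = 0.00722 by edgeR) and -2.40 (adjusted p = 0.00282) in the medium and high bins of ATV-CD98hc. Nr2f1 differed by 0.51 (adjusted p = 0.0116) and 0.91 (adjusted p = 0.000188) in those of ATV-TfR. The filter left 157 and 415 cells in the medium and 75 and 71 cells in the high libraries of ATV-CD98hc. It left 138 and 151 cells in the high libraries of ATV-TfR. Before it, the high libraries of ATV-CD98hc held only 15 and 19 UMIs of Lhx2 and 7 and 5 of Emx2.

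The direct comparison of the 2 ATVs asked whether equally bright astrocyte-like cells differ in regional factors. Unlabelled cells showed no called difference for any of the 6, and Lhx2 and Emx2 were called in the medium and high bins. In the negative bin 0 of 6 were called by edgeR, against 0.962% of all genes, with 1 at an unadjusted p below 0.05 and 0 by DESeq2. In the low bin 0 of 6 were called, against 4.82%, with 2 and 0 by the same counts. With only the groups compared in the fit Emx2 (0.28, adjusted p = 0.0171) and Zic1 (0.36, adjusted p = 0.0164) were called there. In the medium bin 2 of 6 were called, against 19.8%: ATV-TfR minus ATV-CD98hc was 0.87 (SE 0.15, adjusted p = 0.000425) for Lhx2 and 0.89 (SE 0.12, adjusted p = 1.77e-05) for Emx2. In the high bin 3 of 6 were called, against 11.1%, with 2.94 (SE 0.30, adjusted p = 4.05e-06) for Lhx2, 2.78 (SE 0.32, adjusted p = 1.35e-05) for Emx2 and 0.74 (SE 0.16, adjusted p = 0.00402) for Nr2f1. Lhx2 in those high libraries was 145 and 174 CPM with ATV-TfR against 19.7 and 27.4 CPM with ATV-CD98hc, and Emx2 was 50.4 and 49.7 CPM against 9.18 and 7.21 CPM. Nr2f1 in the high bins (177 and 195 against 139 and 111 CPM) lost its call without replicate 2 of ATV-CD98hc (0.57, adjusted p = 0.164) and with thinned cells (0.67, adjusted p = 0.0898). DESeq2 called 4 of 6 in the high bin. Tcf7l2 in the high bins (-0.30, adjusted p = 0.0817) was called without the control IgG library (-0.34, adjusted p = 0.0473).

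The change from the negative bin was compared between the ATVs as well. For the low bin 0 of 6 genes were called by edgeR, against 1.94% of all genes, with 0 at an unadjusted p below 0.05 and 0 by DESeq2. The same contrasts for the medium and high bins were added after the values had been seen. For the medium bin 3 of 6 were called, against 6.94%: Lhx2 by 1.10 (SE 0.22, adjusted p = 0.00340), Emx2 by 0.89 (SE 0.16, adjusted p = 0.00199) and Zic1 by -0.92 (SE 0.26, adjusted p = 0.0343). Emx2 lost its call without replicate 2 of ATV-TfR (0.81, adjusted p = 0.0836), with thinned cells (0.68, adjusted p = 0.0804) and over cells with no UMI of capillary genes or Ttr (0.73, adjusted p = 0.133). Zic1 lost its own without replicate 1 (-0.68, adjusted p = 0.22) or 2 (-1.12, adjusted p = 0.0534) of ATV-CD98hc and without replicate 2 of ATV-TfR (-0.52, adjusted p = 0.636). Zic1 was also not called with thinned cells, the stricter cell filter, the gate on marker UMIs or only the groups compared in the fit, which left it called in 8 of 15 alternatives. For the high bin 3 of 6 were called, against 6.92%, with 3.16 (SE 0.34, adjusted p = 1.67e-05) for Lhx2, 2.77 (SE 0.34, adjusted p = 6.41e-05) for Emx2 and 0.91 (SE 0.20, adjusted p = 0.00779) for Nr2f1. DESeq2 called 4 of 6 for the high bin. The Nr2f1 value was 0.80 (adjusted p = 0.115) with thinned cells, 0.72 (adjusted p = 0.197) without replicate 2 of ATV-CD98hc and 0.85 (adjusted p = 0.0667) without replicate 1 of ATV-TfR. Without replicate 1 of ATV-CD98hc Otx2 was called too, with -0.71 (adjusted p = 0.0471) for the medium and -1.75 (adjusted p = 0.0186) for the high bin, against -0.40 and -0.87 with it.

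To give the same change per cell at 1 depth, each astrocyte-like cell was thinned to 2000 UMIs, which left 80500 cells, and counted as having at least 1 UMI of Lhx2 or Emx2, or of Otx2 or Zic1. At these levels the share follows the level itself, so fewer cells with the gene and less RNA per cell cannot be told apart. In ATV-CD98hc cells with Lhx2 or Emx2 made up 21.7% and 27.9% in the negative, 17.7% and 19.5% in the low, 10.95% and 13.5% in the medium and 4.61% and 6.62% in the high bin. The high shares are 7 of 152 and 10 of 151 thinned cells. In ATV-TfR they made up 20.7% and 21.9%, 20.0% and 22.5%, 19.5% and 24.0%, and 24.3% and 28.5%, so that the share dropped with fluorescence in ATV-CD98hc and was highest in the high bin in ATV-TfR. Cells with Otx2 or Zic1 made up 5.97% and 6.45% in the negative and 4.11% and 3.47% in the high bin of ATV-TfR, and 5.63% and 5.27%, then 3.29% and 7.28%, in those of ATV-CD98hc. Without thinning, Lhx2 had a UMI in 28.6% and 34.2% of negative and 6.82% (95% exact binomial interval 3.57% to 11.6%) and 6.67% (3.69% to 10.9%) of high cells of ATV-CD98hc. These intervals cover counting error only.

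**Figure D3:**
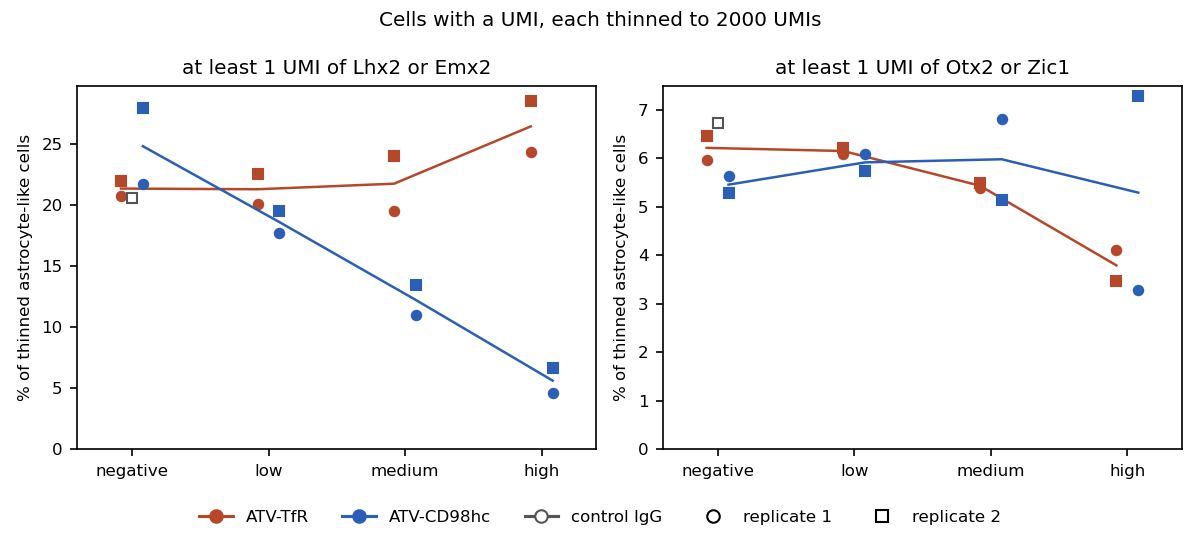
Share of thinned astrocyte-like cells (y axis, % of cells at 2000 UMIs each) with at least 1 UMI of Lhx2 or Emx2 (left) or of Otx2 or Zic1 (right), by fluorescence bin. Points are libraries and lines join means. The left share falls to 4.61% and 6.62% in the high bin of ATV-CD98hc and is 24.3% and 28.5% in that of ATV-TfR.

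Among these thinned cells the factors sorted into pairs. Cells with both Lhx2 and Emx2 numbered 1845, which is 2.06 times the 896 that independent detection would give, and cells with both Otx2 and Zic1 numbered 179, or 2.62 times the number under independence. Lhx2 with Otx2 was found in 69 cells where 502 would be found if detection were independent, a ratio of 0.14, and Emx2 with Otx2 in 39 cells, a ratio of 0.18. Lhx2 with Zic1 (0.64) and Emx2 with Zic1 (0.66) lay between. Tcf7l2 and Nr2f1 were near independence with each other (0.97), Tcf7l2 being somewhat less frequent with Lhx2 (0.83) and more frequent with Otx2 (1.22). These ratios pool cells of 17 libraries and carry no test.

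Clusters made without the 6 genes separated the same 2 sets among the largest astrocyte-like clusters. Overlapping genes on the opposite strand, such as Emx2os, were not barred from the clustering. Emx2os was among the leading genes of clusters 3 and 12, so the clusters may not be independent of the 6 genes. Cluster 35 (640 cells), left unnamed since tanycyte genes led it, held genes of both sets: 149 CPM of Lhx2, 38.1 CPM of Otx2 and 95.7 CPM of Zic1. Smaller astrocyte-like clusters, 29, 36, 53 and 62 (118 to 918 cells), also held both, with 90.6 to 121 CPM of Lhx2 and 16.1 to 24.4 CPM of Otx2. Cluster 23 (1411 cells) held 341 CPM of Lhx2 and 4.39 CPM of Otx2, and cluster 30 (864 cells) 5.92 and 39.2 CPM. Cluster 65 (35 cells) held 196 CPM of Zic1 and no UMI of Otx2. Of the 6 astrocyte-like clusters with the most cells, cluster 3 (18078 cells), cluster 4 (17334 cells) and cluster 12 (6316 cells) held 176, 245 and 92.5 CPM of Lhx2 and 75.7, 79.6 and 54.0 CPM of Emx2, but 3.13, 1.99 and 3.22 CPM of Otx2. Cluster 2 (18912 cells), cluster 6 (15990 cells) and cluster 7 (10028 cells) held 7.52, 4.93 and 5.83 CPM of Lhx2 and 33.6, 44.3 and 36.5 CPM of Otx2. Tcf7l2 was higher in clusters 2, 6 and 7 (381, 386 and 550 CPM) than in clusters 3 and 4 (305 and 222 CPM), and cluster 12 held 446 CPM. Nr2f1 differed less between clusters, from 102 CPM in cluster 7 to 183 CPM in cluster 4. Within clusters 3 and 4 group means of Lhx2 in ATV-CD98hc ran from 175 to 166 CPM in cluster 3 and from 228 to 237 CPM in cluster 4 between the negative and medium bins, and in ATV-TfR from 162 to 190 CPM and from 232 to 271 CPM between the negative and high bins. The ATV-TfR libraries of cluster 4 overlapped, with 214 and 250 CPM in the negative and 230 and 311 CPM in the high bin. Those of cluster 3 did not, with 148 and 176 against 187 and 193 CPM. In cluster 12 of ATV-CD98hc Lhx2 was 102 and 122 CPM in the negative, 93.9 and 92.1 CPM in the low and 85.7 and 84.1 CPM in the medium bin, with no overlap, the last from 14 and 25 UMIs. In cluster 2 its mean was 8.99 CPM in the negative and 2.58 CPM in the high bin, the latter from 2 UMIs. Emx2 in cluster 3 of ATV-CD98hc was 74.2 and 79.4 CPM in the negative and 49.9 and 57.6 CPM in the medium bin, with no overlap, and in cluster 4 it was 89.3 and 71.2 against 96.5 and 67.0 CPM, overlapping. Otx2 within cluster 2 was 38.3, 33.2, 20.5 and 5.89 CPM from negative to high in ATV-CD98hc, the last from 5 UMIs, and 32.5, 40.9, 32.2 and 20.4 CPM in ATV-TfR. In cluster 7 it was 53.5, 39.4, 33.1 and 19.2 CPM in ATV-CD98hc and 37.2, 35.0, 29.4 and 18.4 CPM in ATV-TfR, the high values from 5 and 3 UMIs. In cluster 6, where Otx2 was highest, it was 39.4 and 46.8 CPM in the negative and 31.7 and 44.0 CPM in the high libraries of ATV-TfR, which overlapped, and 52.4 and 37.3 against 41.9 and 33.0 CPM in the negative and medium libraries of ATV-CD98hc, which overlapped too. In the high bin of ATV-CD98hc only clusters 2 (176 cells) and 7 (115 cells) had libraries with at least 20 cells, of 386 astrocyte-like cells in all. The shares of cells by cluster in the negative and high bins are given with the values of Emx2 and Otx2 above, as a description with no test.

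**Figure D4:**
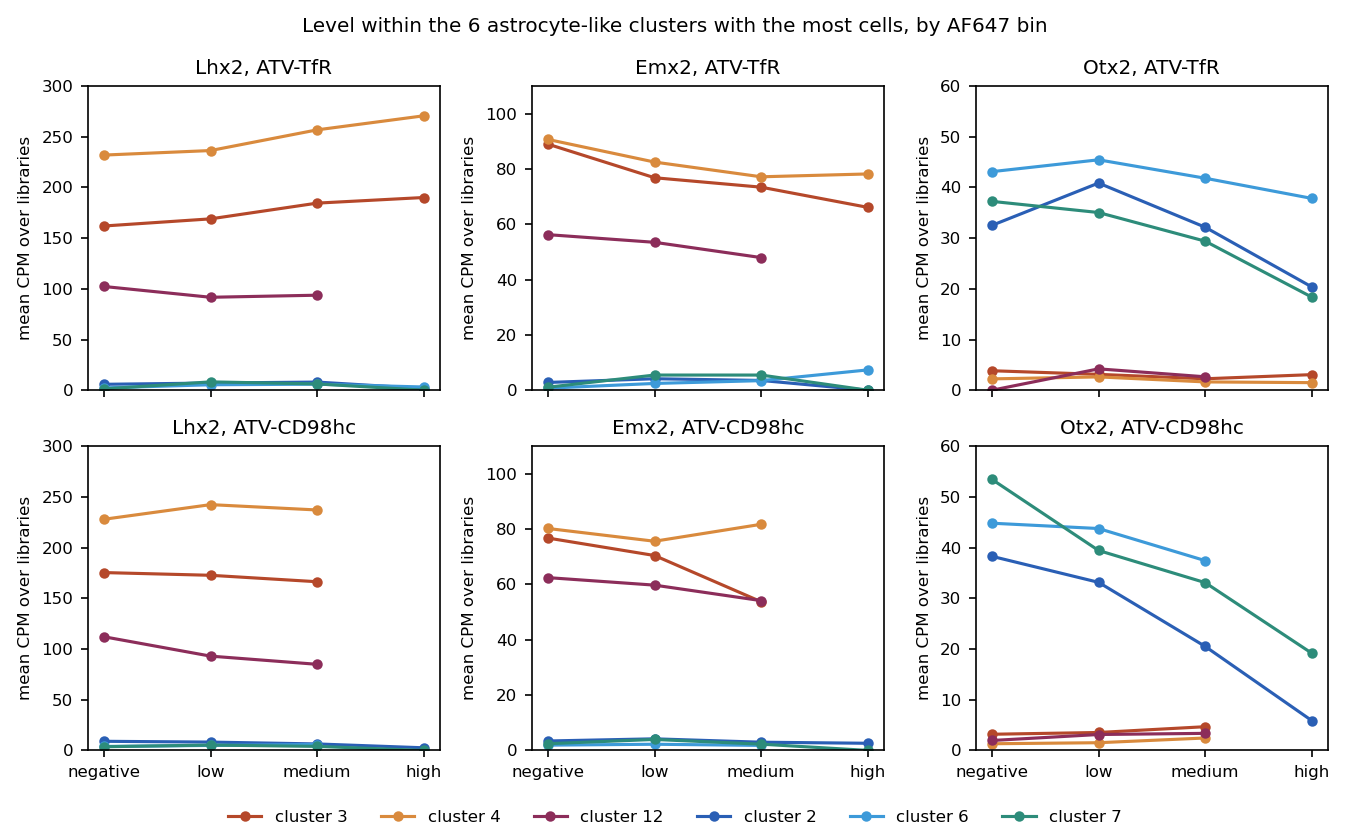
Mean CPM over libraries with at least 20 cells of the cluster (y axis) by fluorescence bin (x axis) for Lhx2, Emx2 and Otx2 in the 6 astrocyte-like clusters with the most cells. Upper panels show ATV-TfR and lower panels ATV-CD98hc, and a missing point means that no library had 20 cells. Clusters 3, 4 and 12 hold Lhx2 and Emx2, and clusters 2, 6 and 7 hold Otx2. In the high bin clusters 3, 4, 6 and 12 have no point in ATV-CD98hc, and cluster 12 has none in ATV-TfR.

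The 6 genes were set beside wider lists of regional factors in astrocyte-like cells, all chosen with earlier results of these data known. Of 18 telencephalic patterning factors, which include Lhx2, Emx2 and Nr2f1, 14 were tested. In ATV-CD98hc 1 was higher and 1 lower in the low bin, 2 higher and 7 lower in the medium and 3 higher and 6 lower in the high bin, where 3.46%, 16.5% and 8.45% of all genes tested were called, with median differences of -0.16, -0.69 and -1.34 beside medians over all genes of 0.01, -0.01 and -0.02. In ATV-TfR 0, 2 and 4 were higher and none was lower, where 1.45%, 4.66% and 19.8% of all genes were called, with medians of 0.05, 0.22 and 0.17. Of 30 diencephalic and midbrain factors, which include Otx2, Tcf7l2 and Zic1, 23 were tested. In ATV-CD98hc 0, 6 and 3 were higher and 2, 1 and 1 lower, with medians of 0.16, 0.21 and 0.03. In ATV-TfR 0, 0 and 1 were higher and 0, 1 and 4 lower, with medians of -0.09, -0.19 and -0.57 beside -0.03 over all genes in the high bin. Over the 17 of these factors with a mean of at least 20 UMIs per library the median in the high bin was -0.36. The 5 called of 23 in that bin are a share near the 19.8% called over all genes. Of 16 Hox and other factors of hindbrain and cord, from tissue that was not collected, 1 was tested and not called, and their summed level was at most 2.50 CPM in any library.

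By the rule for naming genes of these lists, Nr2f2, the close relative of Nr2f1, rose in both treatments, by 0.55 (SE 0.11, adjusted p = 0.00728 by edgeR) in the low and 1.10 in the high bin of ATV-CD98hc and by 1.33 in the high bin of ATV-TfR. Lef1, a Wnt effector like Tcf7l2, was lower in the low bin of ATV-CD98hc (-0.56, adjusted p = 0.0101), higher in its medium bin (1.11) and 19.4 CPM beside 19.7 CPM in its high and negative bins. In ATV-TfR Lef1 was 34.9 and 34.5 CPM in the high and 19.3 and 17.1 CPM in the negative bin and was called higher (1.04, adjusted p = 0.000124 by edgeR). RNA of capillary cells was also high in astrocyte-like cells of these bins. The endothelial marker Cldn5 was 252 and 398 CPM in the medium bin of ATV-CD98hc and 342 and 240 CPM in the high bin of ATV-TfR. It was also 143 and 268 CPM in the high bin of ATV-CD98hc, where Lef1 was not raised. The part of capillary RNA in the changes of Nr2f2 and Lef1 was not tested.

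Of 10 region-linked astrocyte genes that are no transcription factors, all were tested. In ATV-CD98hc 6 were higher in each positive bin and 1, 2 and 2 were lower, and in ATV-TfR 0, 5 and 5 were higher and 0, 2 and 3 lower, beside the same shares over all genes as for the factors (3.46%, 16.5% and 8.45%, and 1.45%, 4.66% and 19.8%). Crym, which encodes a thyroid hormone binding protein, was 165 CPM in the negative and 16.5 CPM in the low bin of ATV-CD98hc (-3.28, SE 0.29, adjusted p = 3.31e-06 by edgeR), and 169 and 19.9 CPM in the negative and high bins of ATV-TfR. Gfap, the intermediate filament gene of fibrous and reactive astrocytes, rose from 25.2 to 48.8 CPM in the low bin of ATV-CD98hc (0.98, SE 0.12, adjusted p = 8.62e-05), and from 28.8 to 278 CPM in the high bin of ATV-TfR.

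**Figure D5:**
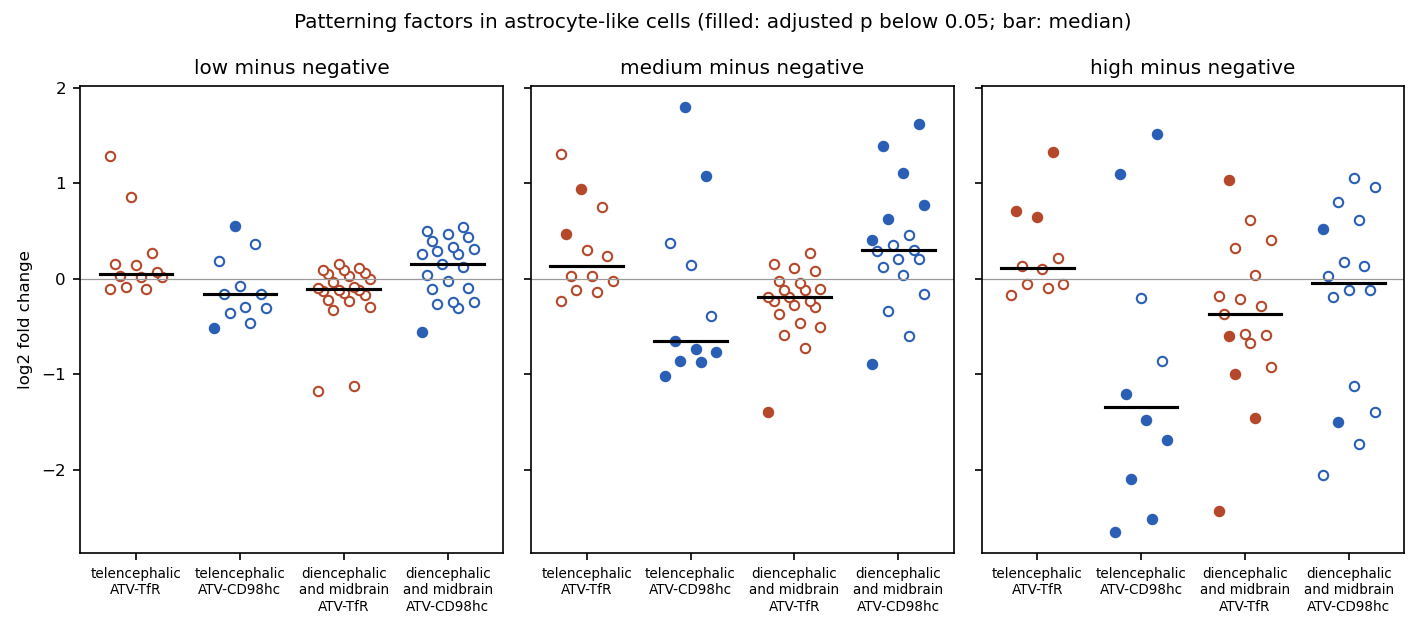
Log2 fold change from the negative bin (y axis) of telencephalic and of diencephalic and midbrain factors with a mean of at least 20 UMIs per library (10 to 12 and 16 to 22 genes) in astrocyte-like cells. Points are genes, filled where called, and bars are medians. The telencephalic median goes from -0.16 in the low to -0.65 in the medium and -1.34 in the high bin of ATV-CD98hc, and stays between 0.05 and 0.14 in ATV-TfR. The diencephalic and midbrain median is 0.16, 0.30 and -0.04 in ATV-CD98hc and -0.10, -0.19 and -0.36 in ATV-TfR.

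Genes whose log2 CPM ran most closely with a member over the 17 astrocyte-like libraries were sought among 9797 genes. Libraries of 1 pool share their mice, and the r values are a description. For Lhx2 they were Pantr1 (Pearson r 0.98), Npc1 (0.98) and Sept8 (0.98), and for Emx2 St6galnac5 (0.98), Sept8 (0.98) and Me3 (0.97), so that Sept8 was named for both. Nr2f1 ran with Tpp1 (0.95) and Fgfr3 (0.92), and Otx2 with Atp7a (0.94), Ino80 (0.93) and Rabgap1 (0.92). Tcf7l2 ran with Lrrc40 (0.90), Fam214a (0.89) and Ankhd1 (0.89), and Zic1, with its low counts, with Map7d2 (0.86), Zbtb7a (0.85) and Hook2 (0.84).

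Outside astrocytes the high and negative bins were compared in each class with at least 20 cells in the libraries of both. In pericyte-like cells Zic1 and Nr2f1 were lower in the high bin of both ATVs. Zic1 was 465 and 529 CPM in the negative and 240.2 and 259 CPM in the high libraries of ATV-TfR, and 556 and 485 CPM against 253 and 240.2 CPM in ATV-CD98hc, with no overlap. The differences were -0.93 (SE 0.22, adjusted p = 0.00223 by edgeR) and -1.04 (SE 0.22, adjusted p = 0.00126). Nr2f1 was 154 and 173 against 77.5 and 93.6 CPM in ATV-TfR (-0.87, SE 0.20, adjusted p = 0.00174) and 170 and 175 against 80.2 and 87.0 CPM in ATV-CD98hc (-0.99, SE 0.21, adjusted p = 0.00125). Tcf7l2 was called in ATV-CD98hc (57.5 against 93.9 CPM, -0.68, adjusted p = 0.0370 by edgeR), but in only 5 of 15 alternatives. It lost the call with DESeq2, with no filter on low counts, with only the groups compared in the fit and on leaving out any 1 pool. In ATV-TfR it was 65.3 against 92.8 CPM (-0.44, adjusted p = 0.133), called with the replicate block (-0.43, adjusted p = 0.00874) and without replicate 1 or 2 of ATV-CD98hc (-0.44 both times, adjusted p = 0.0253 and 0.0291). Lhx2 had 11 and 1 UMIs in the negative and none in the high libraries of ATV-CD98hc, which allows up to 2.43 and 1.48 CPM there, and it was called lower, but not without replicate 1 of ATV-CD98hc (adjusted p = 0.463). In all 2 of 5 genes tested were called in ATV-TfR, against 23.7% of all genes, and 4 of 5 in ATV-CD98hc, against 21.4%.

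The same pericyte-like libraries differed in endothelial RNA. The summed endothelial markers were 185 to 553 CPM in the negative and 14399 to 14474 CPM in the high libraries of ATV-TfR, and 271 to 411 CPM and 15424 to 16795 CPM in those of ATV-CD98hc, while the summed pericyte markers were 37055 to 39200 CPM and 18995 to 19384 CPM, and 34256 to 44425 CPM and 15011 to 18668 CPM. Over cells with no UMI of Cldn5, Flt1, Pecam1 or Ptprb, a choice made after seeing the data, Zic1 differed by 0.02 (SE 0.24) in ATV-TfR and by -0.00 (SE 0.32) in ATV-CD98hc, and Nr2f1 by -0.45 (SE 0.31) and -0.01 (SE 0.44). No member was then called. That left 100 and 54 cells in the high bins, with 1 high library of at least 20 cells in ATV-CD98hc. In all cells of ATV-TfR, leaving out replicate 1 or 2 gave -0.996 (adjusted p = 0.12) or -0.88 (adjusted p = 0.164) for Zic1 and -0.85 (adjusted p = 0.166) or -0.92 (adjusted p = 0.11) for Nr2f1.

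In fibroblast-like cells of ATV-CD98hc Nr2f1 was higher in the high bin, with 517 and 364 CPM against 223 and 194 CPM in the negative bin (1.06, SE 0.27, adjusted p = 0.0102 by edgeR), and 1 of 4 genes tested was called, against 10% of all genes. The value was 0.86 (adjusted p = 0.308) without replicate 1 and 1.21 (adjusted p = 0.067) without replicate 2 of ATV-CD98hc. The summed pericyte markers of these libraries were 692 to 1244 CPM in the high and 5237 to 5529 CPM in the negative bin, and their part in this difference was not tested. Zic1 there was 433 and 408 CPM against 542 and 327 CPM, overlapping and not called. In control IgG, whose negative arm is 1 library that is assumed to vary like the other groups, 1 of 4 was called, against 12.8%: Lhx2, with 6 UMIs in the single negative library and none in the 2 high libraries, where up to 7.88 and 5.01 CPM would be compatible with 0 UMIs. That call was lost with the replicate block (adjusted p = 0.0859), without replicate 1 of control IgG (adjusted p = 0.0866) and without either pool of ATV-TfR (adjusted p = 0.0518 both times). Nr2f1 in control IgG was 394 and 419 CPM in the high and 261 CPM in the negative bin and was called with the replicate block (0.79, adjusted p = 0.0257), where the 1 negative library is paired with high replicate 2 alone.

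Otx2 in choroid plexus epithelial-like cells, its main site here, was 315 and 272 CPM in the negative and 206 and 261 CPM in the high libraries of ATV-TfR. The difference of -0.42 (SE 0.16, adjusted p = 0.0534 by edgeR) was not called, and with the replicate block it was -0.43 (adjusted p = 0.0293), and without replicate 1 of control IgG -0.43 (adjusted p = 0.0455). In ATV-CD98hc Otx2 was 252 and 296 against 266 and 259 CPM (-0.25, adjusted p = 0.254), and in control IgG it was 268 CPM against 288 and 358 CPM (0.10, adjusted p = 0.801). In ATV-TfR 0 of 6 genes were called, against 23% of all genes, with 2 at an unadjusted p below 0.05 and 0 by DESeq2, and in control IgG 0 of 6, against 9.52%, with 1 and 0, where Lhx2 was called with the replicate block (adjusted p = 0.0308). In ATV-CD98hc 1 of 6 was called, against 31.3%: Lhx2, with 15 and 4 UMIs in the negative and 0 and 1 UMIs in the high libraries. Its call was lost without replicate 1 of ATV-CD98hc (adjusted p = 0.0525). Tcf7l2 there (0.75, adjusted p = 0.071) was called without replicate 1 or 2 of ATV-TfR (0.855 and 0.863, adjusted p = 0.0403 and 0.0396). The summed astrocyte markers in those cells were 766 to 994 CPM in the negative and 31.7 to 59.4 CPM in the high libraries, and their part was not tested.

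In microglia-like cells Tcf7l2 was lower in the high bin of ATV-CD98hc, at 74.0 and 16.6 CPM against 154 and 138 CPM (-1.30, SE 0.33, adjusted p = 0.0241 by edgeR), and 1 of 4 genes tested was called, against 5.58%. The high libraries held 59 and 25 cells, and their summed endothelial markers were 2451 to 3075 CPM against 41.4 to 42.9 CPM. Over cells with no endothelial UMI the difference was -0.81 (adjusted p = 0.604), and without replicate 2 of ATV-CD98hc it was -0.99 (adjusted p = 0.0698). Leaving out replicate 1 or 2 of ATV-TfR, which share only the estimate of the spread, gave -1.33 both times (adjusted p = 0.0557 and 0.0535).

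In endothelial-like cells, where Tcf7l2 was the most abundant member (41.0 and 44.7 CPM in the high and 75.6 and 82.3 CPM in the negative bin of ATV-TfR), 0 of 6 genes were called in ATV-TfR, against 6.55% of all genes, with 1 at an unadjusted p below 0.05 and 1 by DESeq2. With the replicate block Tcf7l2 was called (-0.76, adjusted p = 0.0372). In ATV-CD98hc 0 of 6 were called, against 3.86%, with 2 at an unadjusted p below 0.05 and 2 by DESeq2, and Lhx2 was called with the replicate block (adjusted p = 0.0162). The negative libraries held 48 to 77 endothelial-like cells. In border macrophage-like cells 0 of 2 genes tested were called by edgeR in ATV-TfR (against 6.69%) and 0 of 2 in control IgG (against 1.73%), with 0 and 1 at an unadjusted p below 0.05 and 0 by DESeq2 in both. In oligodendrocyte-like cells 0 of 4 were called in ATV-TfR (against 6.19%) and in T or NK cell-like cells 0 of 2 (against 21.2%), with 0 at an unadjusted p below 0.05 and 0 by DESeq2 in both classes.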

How the data were processed

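Single-cell RNA-seq UMI counts were deposited as whole numbers per gene and barcode, not normalized, made with Cell Ranger 7.1.0 per the file headers. The other deposited files (unit other) list genes, barcodes and libraries. The submitters' processing notes name Seurat 4 and 5 and build mm10 (GRCm38). Neither the annotation release nor how cells were called is stated in those notes.

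A minimum of 500 genes and of 800 UMIs and a maximum of 10% mitochondrial UMIs left 249715 barcodes, and 15693 Scrublet doublets (0.690% to 12.2% per library) were removed. In 8 libraries, whose automatic threshold marked under 0.5% or over 25%, percentile 94 was used. These were the high libraries of both ATVs, the medium libraries of ATV-CD98hc, and replicate 2 of the low bins of ATV-CD98hc and control IgG. All negative libraries, and the low and medium libraries of ATV-TfR, kept the automatic threshold. Doublet removal thus differed between the bins compared, and an alternative kept all doublet calls. Leiden clusters (scanpy 1.11.5, igraph 0.11.9, 2000 variable genes without any listed gene, resolution 1) were named where at least 3 markers and a share of 0.5 of a list were detected. Clusters with markers of several lists or leading genes of another list stayed unnamed. So did clusters led by pituitary, pineal or tanycyte genes, a rule set after the clusters had been seen. It left out clusters 35 (640 cells) and 46 (413 cells), whose best list was that of astrocytes. In all 9796 cells stayed unnamed. UMIs were summed per class and library (at least 20 cells) and fitted with edgeR 4.0.16 (limma 3.58.1, R 4.3.3; quasi-likelihood, TMM, filter on low counts, all groups of a class in 1 fit, Benjamini-Hochberg over all genes), tested on simulated data, with DESeq2 1.42.0 as an alternative. Replicate numbers pair bins, since the bins of a pool share their mice. Across bins the deviations of a pool correlated from -0.10 to 0.61 in ATV-CD98hc and from 0.12 to 0.69 in ATV-TfR.

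All 6 members are named. Of each list the 2 called genes with the largest change in the low bin and at least 20 UMIs per library are named. The genes most like a member are the 3 with the highest Pearson r among genes of at least 10 CPM. Of the genes these rules pick, 2 are not reported here. Members and lists were chosen with earlier results of these data known. Coordinates come from the GENCODE vM21 annotation and promoter windows from RefSeq.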

Additional observations from a re-analysis of the deposited data

Results flagged for a closer look

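The change from the negative to the medium bin in astrocyte-like cells differed between the ATVs by a test of the difference itself (edgeR, Benjamini-Hochberg adjusted) for Lhx2 (ATV-TfR minus ATV-CD98hc, 1.10), Emx2 (0.89) and Zic1 (-0.92). For the high bin it differed for Lhx2 (3.16), Emx2 (2.77) and Nr2f1 (0.91). Lhx2 and Emx2 fell in ATV-CD98hc in both bins, and Lhx2 rose in the high bin of ATV-TfR. Of 15 alternatives the medium difference was called in 12 for Emx2 and in 8 for Zic1, the high difference in 12 for Nr2f1, and the rise of Lhx2 in ATV-TfR in 10. Both contrasts were added after the values had been seen, and antibody and genotype cannot be told apart in them.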

How the results depend on the processing

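Depth and pools limit these results. Astrocyte-like cells of the high bin of ATV-CD98hc numbered 386, with 5 to 19 UMIs of Lhx2, Emx2 or Otx2 per library. Each group had 2 pools, except control IgG negative with 1. Leaving out a pool of an ATV thus leaves 1 library in its groups, whose spread is assumed to be that of the others. Of the values per gene and alternative in astrocyte-like cells, 251 of called differences stayed called and 29 did not, while 844 of uncalled differences stayed uncalled, 21 became called in the same direction and 1 was called in the other. In the other classes 110 called values stayed called, 32 lost the call and 1 turned in sign, and 653 uncalled ones stayed uncalled and 27 became called. The 2 that turned were Zic1 in astrocyte-like cells, high minus negative of ATV-CD98hc, at 1.63 when cells were gated on marker UMIs (-0.19 otherwise), and Zic1 in pericyte-like cells, high minus negative of ATV-TfR, at 0.017 without cells with endothelial UMIs (-0.93 otherwise). The cause was not tested.

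The number of the 6 genes called moved by over 1.5 times as follows in astrocyte-like cells. For ATV-TfR medium minus negative it was 1, 0 with thinned cells, 2 without cells with capillary or Ttr UMIs, 0 by the gate and 0 to 1 on leaving out pools. For ATV-TfR high minus negative it was 3, and 1 with thinned cells, without capillary or Ttr UMIs or by the gate, and 1 to 3 without single pools. For ATV-CD98hc low minus negative it was 0, then 1 with RLE factors, with no filter or with doublets kept, 2 with the replicate block and 0 to 1 without pools. ATV-TfR minus ATV-CD98hc in the low bin went from 0 to 2 with only the groups compared in the fit. The difference of the medium changes went from 3 to 1 with thinned cells and 1 to 3 without pools. Smaller shifts were 2 to 3 in ATV-CD98hc medium, in ATV-CD98hc high and between the ATVs in the medium bin, and 2 to 4 (3) between them in the high bin and for the difference of the high changes.

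By the same measure, in the other classes (high minus negative) the number was 1 instead of 0 with doublets kept in border macrophage-like cells of control IgG. In choroid plexus epithelial-like cells it was 1 instead of 0 with the replicate block or the stricter cell filter in ATV-TfR (0 to 1 without pools), 2 instead of 1 with RLE factors, no filter or doublets kept and 0 with thinned cells in ATV-CD98hc (0 to 2 without pools), and 1 instead of 0 with the replicate block or doublets kept in control IgG. In endothelial-like cells it was 1 instead of 0 with DESeq2, the replicate block or only the groups compared in ATV-TfR, and 2 with DESeq2 and 1 with no filter, the replicate block or doublets kept in ATV-CD98hc. In fibroblast-like cells it was 2 instead of 1 with DESeq2 or no filter and 0 with thinned cells or only the groups compared in ATV-CD98hc (0 to 1 without pools), and 0 instead of 1 with thinned cells or only the groups compared in control IgG (0 to 1 without pools). In microglia-like cells it was 0 instead of 1 with thinned cells or without endothelial UMIs (0 to 1 without pools). In pericyte-like cells it was 5 instead of 2 with doublets kept and 0 without endothelial UMIs in ATV-TfR (0 to 3 without pools), and 0 without endothelial UMIs and 2 with only the groups compared instead of 4 in ATV-CD98hc (2 to 3 without pools).

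Over all genes in astrocyte-like cells the replicate block moved the number called from 770 to 1199 in ATV-TfR medium minus negative, from 572 to 1038 in ATV-CD98hc low minus negative and from 1147 to 1745 for the difference of the medium changes. Counts over all genes ranged over the alternatives from 68 to 399 (240) in ATV-TfR low, 214 to 1364 (770) in ATV-TfR medium, 610 to 4064 (3265) in ATV-TfR high, 287 to 1066 (572) in ATV-CD98hc low, 797 to 3433 (2724) in ATV-CD98hc medium and 554 to 1687 (1397) in ATV-CD98hc high. Between the ATVs they ranged from 45 to 699 (159) in the negative, 288 to 2185 (796) in the low, 1046 to 4034 (3280) in the medium and 605 to 2194 (1831) in the high bin. For the differences of the changes they ranged from 147 to 570 (321) for the low, 266 to 1759 (1147) for the medium and 300 to 1552 (1143) for the high bin. For high minus negative in the other classes they ranged from 316 to 1334 (986) in T or NK cell-like, 92 to 925 (569) in border macrophage-like and 253 to 962 (783) in oligodendrocyte-like cells of ATV-TfR, 34 to 534 (147) in border macrophage-like cells of control IgG and 56 to 985 (665) in microglia-like cells of ATV-CD98hc. In choroid plexus epithelial-like cells they ranged from 628 to 3069 (2862) in ATV-TfR, 1703 to 4092 (3898) in ATV-CD98hc and 177 to 1376 (1186) in control IgG, and in endothelial-like cells from 328 to 1639 (991) in ATV-TfR and 337 to 1250 (584) in ATV-CD98hc. In fibroblast-like cells they ranged from 412 to 1417 (1167) in ATV-CD98hc and 653 to 1696 (1483) in control IgG, and in pericyte-like cells from 7 to 4680 (2800) in ATV-TfR and 0 to 3655 (2531) in ATV-CD98hc.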
